A study of Mus musculus with 16 samples.

Results

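The genes described here are the 2 ATF6 transcription factors of the mouse, Atf6 and Atf6b, and 8 genes for chaperones and folding enzymes of the endoplasmic reticulum (ER): Hspa5, Dnajb11, Sdf2l1, Hsp90b1, Calr, Canx, Pdia4 and Pdia6. They were taken by symbol from deposited gene tables with 29806 gene rows, and each of the 10 symbols matched 1 row. RNA was measured in haematopoietic stem cells (HSC) and in multipotent progenitors of the myeloid-biased class MPP3 that lacked Fcgr, the Fc gamma receptors of granulocyte-monocyte progenitors, all from mouse bone marrow. Control mice were wild type, labelled as the control of Jak2, and mutant mice carried Jak2V617F, an amino-acid change that leaves the kinase JAK2 of cytokine receptors switched on. Both genotypes were sampled in both cell types, which gave 4 groups of 4 libraries, and the labels give the replicate number as the batch. The sources used here do not give the promoter or Cre behind the mutant allele, its copy number, the age or sex of the mice, or any treatment or pooling of animals. The title of the series places the question in unfolded protein response signalling, myeloid cell production and an oncogenic mutation.

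ATF6 is a membrane protein of the ER that acts as a sensor of unfolded protein. When unfolded protein builds up it moves to the Golgi, where site-1 and site-2 proteases (Mbtps1 and Mbtps2) release its cytosolic part, which enters the nucleus as a transcription factor. Together with the CCAAT-binding factor NF-Y it acts on a promoter motif called the ER stress element, which sits before many chaperone genes. This activation is a step of the protein, so the RNA level of Atf6 does not report it. The ER lumen is the compartment in which secreted and membrane proteins fold, and granule proteins of myeloid progenitors are made there.

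Promoter sequences are shown because the chaperones are grouped by their place downstream of ATF6. The sequences show which of them carry an exact match to its element in the window searched. RefSeq promoter windows on GRCm38.p6, from 250 bases before to 50 bases after a transcription start, matched 9 of the 10 genes, all except Atf6. The element searched was CCAAT, 9 bases of any kind, then CCACG, on both strands. The second form, ER stress element II, was ATTGG, 1 base of any kind, then CCACG. Its first 5 bases are the reverse complement of those of the first form. The first 5 bases are the NF-Y motif and the last 5 the ATF6 motif, and both are counted on either strand, so a motif can also appear as its reverse complement in the printed strand. Hspa5, Calr and Sdf2l1 are printed as the 250 bases before the start, since Sdf2l1 and Calr were called in HSC and Hspa5, a classic target of ATF6, was not. Capitals mark the motifs of an element and every further ATF6 motif on either strand.
Hspa5 (chr2:34771840-34772089, plus strand): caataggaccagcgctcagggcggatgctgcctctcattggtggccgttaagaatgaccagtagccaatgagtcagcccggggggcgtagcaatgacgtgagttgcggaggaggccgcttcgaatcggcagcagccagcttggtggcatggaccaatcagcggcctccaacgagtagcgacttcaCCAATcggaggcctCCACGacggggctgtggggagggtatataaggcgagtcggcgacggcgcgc
Calr (chr8:84846932-84847181, minus strand): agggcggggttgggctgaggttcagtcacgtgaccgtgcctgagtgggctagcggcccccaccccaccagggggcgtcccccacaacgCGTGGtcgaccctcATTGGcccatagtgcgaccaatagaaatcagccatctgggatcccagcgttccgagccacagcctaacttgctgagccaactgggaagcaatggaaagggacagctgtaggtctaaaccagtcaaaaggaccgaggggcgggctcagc
Sdf2l1 (chr16:17132384-17132633, minus strand): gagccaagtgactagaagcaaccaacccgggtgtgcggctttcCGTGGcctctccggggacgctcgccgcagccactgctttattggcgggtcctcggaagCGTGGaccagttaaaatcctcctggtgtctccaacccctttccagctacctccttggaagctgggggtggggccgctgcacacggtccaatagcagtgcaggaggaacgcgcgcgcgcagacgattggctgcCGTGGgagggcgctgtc

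The Hspa5 window had an exact match to the element from base -65 to -47, counting the start base as 0. In Calr the element ran on the opposite strand, from -162 to -144. Sdf2l1 had no exact match in the window but 3 ATF6 motifs, at -207, -149 and -17. The remaining elements are printed with their flanking bases, and here capitals mark the 2 motifs of the element alone.
Dnajb11 (chr16:22857843-22857871, plus strand): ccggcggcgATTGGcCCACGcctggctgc
Hsp90b1 distal element (chr10:86705623-86705671, minus strand): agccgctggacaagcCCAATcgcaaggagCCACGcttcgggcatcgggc
Hsp90b1 proximal element (chr10:86705518-86705566, minus strand): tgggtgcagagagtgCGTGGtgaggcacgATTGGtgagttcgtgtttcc
Canx (chr11:50325785-50325833, minus strand): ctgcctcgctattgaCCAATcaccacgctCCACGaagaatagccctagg
Pdia6 (chr12:17266476-17266524, plus strand): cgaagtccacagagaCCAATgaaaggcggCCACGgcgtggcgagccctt

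Elements were found in 5 of the 9 windows (Hspa5, Hsp90b1, Calr, Canx and Pdia6). All RefSeq promoters, these 5 included, had 39 of 32851, or 0.119%. Hsp90b1 held 2 elements. The genes were grouped by their place downstream of ATF6, so contrasts with all promoters here are partly built in and are no test. Element II was found in Dnajb11, just after the start, and in 12 of all promoters, or 0.0365%. The ATF6 motif on its own occurred in 8 of the 9 windows and in 32.8% of all promoters. The NF-Y motif occurred in 9 of 9 and in 37.4%. Of 51 other ER folding genes, 38 had a RefSeq promoter, and the element was found in Creld2 and Dnajc3 only. Pdia4 had 1 ATF6 motif, at base 36 after the start, and no element, and Atf6b had neither. The whole Pdia4 window lay upstream of the annotated gene, so its RefSeq start and the gene annotation differ. Only exact matches in the windows were sought, so variants of the element and elements elsewhere would be missed. A match is a description of the letters in the window, and it says nothing of binding in these cells.

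**Figure D1:**
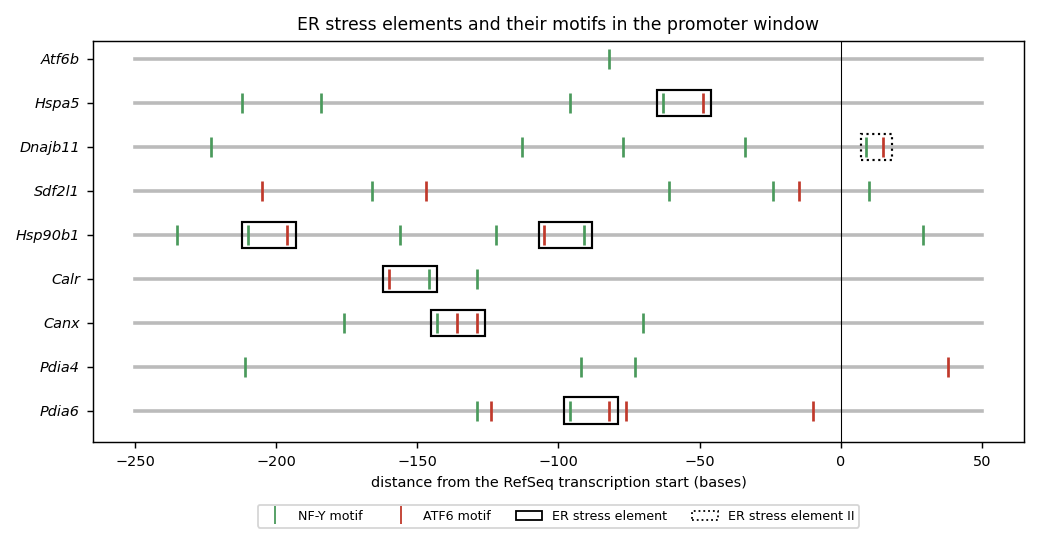
Positions of the NF-Y and ATF6 motifs and of the ER stress element and element II in the promoter window of 9 genes, in bases from the RefSeq transcription start. Boxes mark elements, 2 in Hsp90b1 and 1 each in Hspa5, Calr, Canx and Pdia6, and the dotted box marks element II in Dnajb11.

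Library totals ran from 33108537 to 41230956 estimated counts on gene rows, with 14439 to 16522 genes detected. The 10 genes had between 839 and 48528 counts in a library, and all 10 passed the filter on low counts. The HSC marker Slamf1 had a mean of 39.8 CPM (counts scaled to a common library total with TMM factors) in control HSC and 1.88 in control MPP3. The MPP3 markers Mpo and Cd48 had 9.33 and 2.50 CPM in control HSC and 2492.0 and 185 in control MPP3, as the labels of the sort imply. Of the Fc receptor genes, Fcgr3 reached 9.29 CPM and Fcgr2b 39.2 CPM in control MPP3. Both were called higher in MPP3 than in HSC, with Fcgr2b at a mean of 5.09 CPM in control HSC, 18.7 in control MPP3 and 23.0 in mutant MPP3 (edgeR, adjusted p 0.0121 in control and 0.00186 in mutant mice). The base change of Jak2V617F is not visible in gene counts, so the genotype labels could not be checked. Batch 1 stood apart in genes induced by cell handling (Fos, Jun and their relatives), whose summed level was highest in replicate 1 of every group. The sum was 9424.5 CPM in control HSC replicate 1 and 1175.0 to 1870.1 in the other control HSC. It was 5893.9 against 573 to 1082.6 in control MPP3, 1844.7 against 417 to 743 in mutant HSC, and 1225.4 against 363 to 772 in mutant MPP3. The labels do not say that replicates are separate animals, so each p-value measures the spread between these libraries, which may be technical.

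Levels can be compared between genes only per length, as TPM. Over the 16 libraries the mean TPM was highest for Canx (402), Hspa5 (372), Pdia6 (319) and Calr (271). Hsp90b1 (143), Sdf2l1 (129.6), Pdia4 (90.0) and Dnajb11 (53.5) followed. Atf6b had 47.0 TPM and Atf6 5.03, so the RNA of Atf6b stood 8.70 ± 0.682 times above that of Atf6 in control HSC and 11.1 ± 0.996 times in mutant MPP3 (SD, n = 4). The 8 chaperones together made up 0.154 ± 0.0199% of all TPM in control HSC, 0.180 ± 0.0427% in mutant HSC, 0.178 ± 0.0161% in control MPP3 and 0.200 ± 0.0181% in mutant MPP3 (SD, n = 4 each). These shares overlapped between neighbouring groups. Of the 10 genes, Sdf2l1 varied most between libraries, with a highest TPM 3.18 times the lowest, and Atf6 and Pdia4 least, at 1.52 times each.

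**Figure D2:**
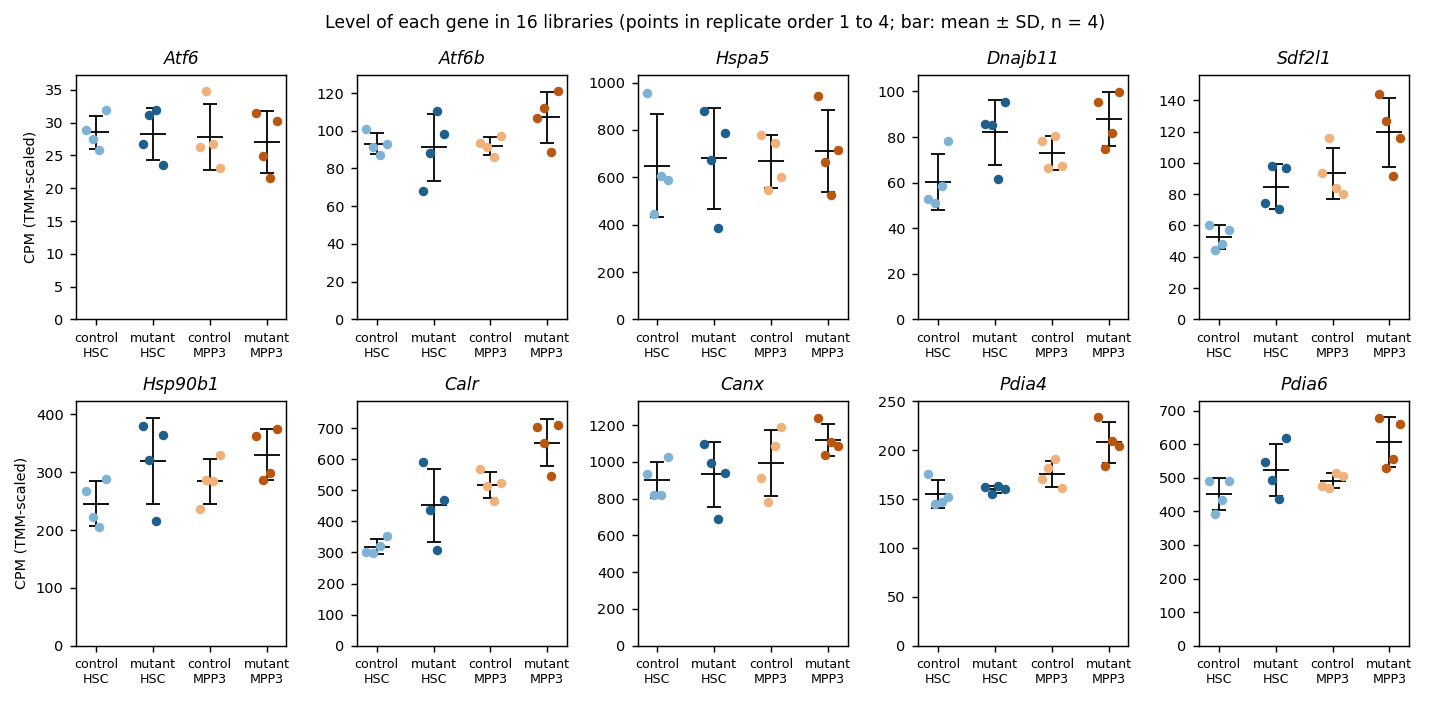
CPM of the 10 genes in each of the 16 libraries, by group, with the mean and SD (n = 4) as bars. Sdf2l1 ran from 44.3 to 60.6 in control HSC and from 70.3 to 97.8 in mutant HSC, while Atf6 stayed between 21.5 and 34.9 in every library.

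In HSC, the mutant libraries had higher RNA of Sdf2l1, a partner of the HSP70 system of the ER, and of Calr, the lectin chaperone calreticulin. The fold was 1.61 for Sdf2l1 and 1.42 for Calr, and these 2 of the 10 genes were called higher (edgeR's quasi-likelihood test, Benjamini-Hochberg adjusted p under 0.05 over 14179 genes). Over all genes 7.30% were called in either direction, 4.56% higher and 2.74% lower. The log2 fold change was positive for all 8 chaperones and negative for both ATF6 factors, where 44.0% of all genes were positive. Its median was 0.30 over the chaperones, 0.14 over the 10 genes and -0.06 over all genes. In 1 gene, Sdf2l1, every mutant library exceeded every control library, a pattern met by 7.26% of all genes. In bulk RNA a change in the cells' makeup and a change in RNA per cell cannot be told apart.

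Other measures separated the same HSC groups. Of 8 HSC markers, 4 were called lower in mutant HSC, against 2.74% of all genes. They were Mllt3 (159 to 73.2 CPM), Hlf (265 to 150.0), Procr (92.2 to 43.5) and Fgd5 (30.1 to 10.6), with edgeR's adjusted p from 0.000163 to 0.0164. Not called were Mecom (138 to 92.4 CPM), Hoxb5 (13.6 to 10.8), Slamf1 (39.8 to 37.6) and Ctnnal1, which went up (32.9 to 48.4). Their adjusted p by edgeR was 0.101, 0.843, 0.928 and 0.423. All 8 markers were lower in control MPP3 than in control HSC. The summed level of the 8 was 674 to 832 CPM in control HSC, 429 to 495 in mutant HSC, 276 to 366 in control MPP3 and 219.7 to 297 in mutant MPP3. Of 7 MPP3 markers, Cd48 rose in mutant HSC from 2.50 to 6.74 CPM and Prtn3 fell (edgeR, adjusted p 0.000763 and 0.0193), and their summed level was 632 to 829 CPM in control and 549 to 721 in mutant HSC. The mitochondrial share of counts was 1.45 to 2.03% in control HSC and 0.924 to 1.37% in mutant HSC, without overlap, and 1.28 to 1.95% against 1.23 to 1.41% in MPP3. The part of these differences in the levels of Sdf2l1 and Calr was not tested.

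In MPP3 none of the 10 genes was called between mutant and control (edgeR, adjusted p 0.238 to 0.965), and DESeq2 and limma-voom also called 0 of them. Few genes of any kind were called: 0.0635% in either direction, 0.0141% higher and 0.0494% lower. With replicate number as a block, 82 genes rather than 9 were called, and without mutant MPP3 replicate 3 the count was 209, with 0 of the 10 called each time. At an unadjusted p under 0.05 the edgeR test gave 4 of the 10 (Pdia6, Pdia4, Calr and Sdf2l1) and 1960 of all 14179 genes. The log2 fold change was positive for all 8 chaperones and Atf6b, against 46.7% of all genes, with a median of 0.25 over the chaperones and -0.02 over all genes. Pdia6 alone had every mutant library above every control library, against 3.65% of all genes.

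The mutant effects in the 2 cell types were compared directly. None of the 10 genes was called as different between MPP3 and HSC in that test (edgeR, adjusted p 0.872 to 1.00), against 0.0423% of all genes. At an unadjusted p under 0.05 the edgeR test gave 0 of the 10 and 982 of all 14179 genes. DESeq2 called 0 of the 10 and 78 of all genes. The 95% interval of the difference, MPP3 minus HSC, ran from -0.81 to 0.15 on the log2 scale for Sdf2l1 and from -0.60 to 0.27 for Calr. These intervals hold 0 and also a smaller effect in MPP3. The mean of the mutant effects over HSC and MPP3 was added after the data were seen. It was called for 4 of the 10 genes, all higher: Sdf2l1, Calr, Dnajb11 and Pdia6 (edgeR, adjusted p 0.00708, 0.0142, 0.0412 and 0.0432). The calls of Sdf2l1 and Calr held with each library left out in turn, and those of Dnajb11 and Pdia6 were lost in 10 and 9 of the 16 such fits (adjusted p up to 0.0776 and 0.0811). Over all genes 12.6% were called, 7.09% higher and 5.55% lower, and 43.4% had a positive value. Because that mean reuses the same libraries, it is no separate evidence. Without batch 1 it was called only for Sdf2l1 (0.56 ± 0.13, adjusted p 0.0314), with Calr at 0.36 ± 0.11 (edgeR, adjusted p 0.0772).

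**Figure D3:**
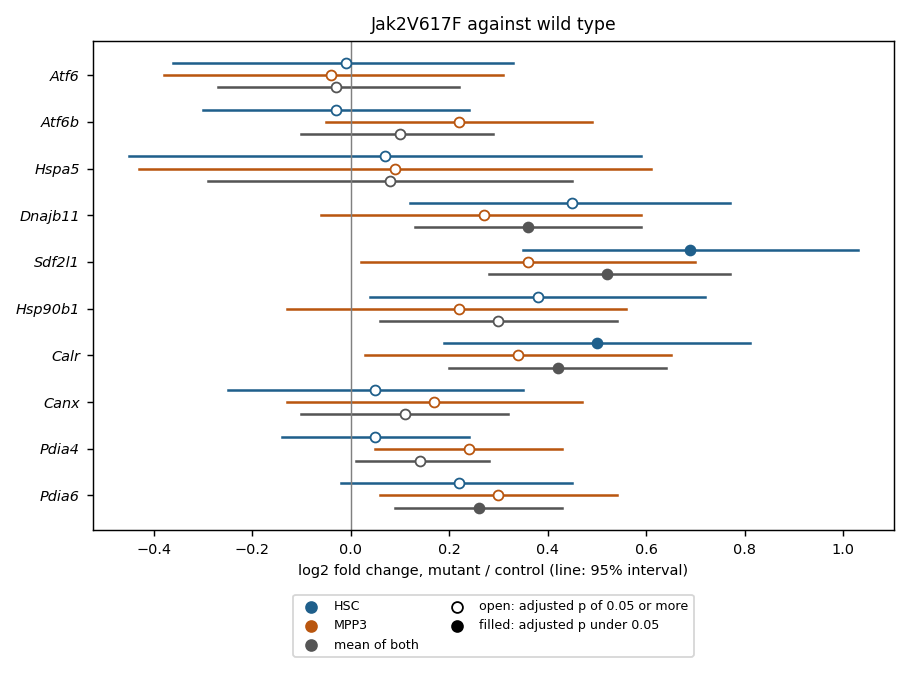
Log2 fold change of mutant against control for the 10 genes in HSC, in MPP3 and as the mean of both, with 95% intervals from edgeR; filled points have an adjusted p under 0.05. Sdf2l1 and Calr are filled in HSC, no gene is filled in MPP3, and Dnajb11 and Pdia6 join them in the mean.

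Between cell types, MPP3 of control mice had more RNA of Sdf2l1 and Calr than HSC, with folds of 1.77 and 1.62. These 2 of the 10 genes were called, both higher, against 13.6% of all genes in either direction, 6.67% higher and 6.91% lower. All 8 chaperones had a positive value (49.5% of all genes), and Sdf2l1 and Calr had no overlap between groups (9.25% of all genes). In mutant mice the called genes were Calr and Pdia4, with folds of 1.45 and 1.30, against 8.36% of all genes in either direction, 3.69% higher and 4.68% lower. There the 8 chaperones and Atf6b had positive values (50.2% of all genes), and in Pdia4 alone the groups did not overlap (6.14% of all genes). The comparison of cell types in control mice shares the control HSC libraries with the comparison of genotypes in HSC, so a low level in those 4 libraries raises both.

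**Figure D4:**
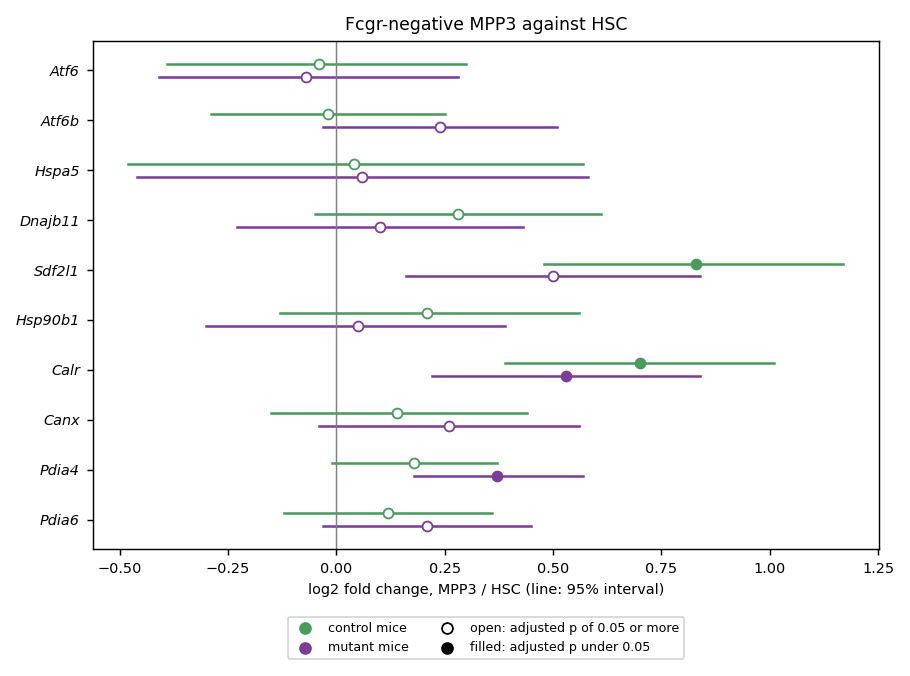
Log2 fold change of MPP3 against HSC for the 10 genes in control and in mutant mice, with 95% intervals from edgeR; filled points have an adjusted p under 0.05. Calr is filled in both genotypes, Sdf2l1 in control mice and Pdia4 in mutant mice.

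Neither ATF6 factor was called in any comparison or alternative (lowest adjusted p 0.157). Atf6 (ENSMUSG00000026663, GRCm38 chr1:170704674-170867771, minus strand) had 28.9, 27.5, 25.9 and 31.9 CPM in control HSC replicates 1 to 4, and 26.7, 31.1, 31.9 and 23.5 in mutant HSC. It had 26.3, 34.9, 26.7 and 23.1 CPM in control MPP3 and 31.5, 24.9, 21.5 and 30.3 in mutant MPP3. All 4 groups overlapped. The mutant effect on the log2 scale was -0.01 ± 0.16 (SE; 95% interval -0.36 to 0.33) in HSC and -0.04 ± 0.16 in MPP3. Atf6b, the related factor (ENSMUSG00000015461, chr17:34647146-34655074, plus strand), ran from 87.4 to 101 CPM in control HSC and from 68.3 to 110.3 in mutant HSC. In MPP3 it had 93.5, 91.5, 85.9 and 97.1 CPM in controls and 107, 112, 88.8 and 121 in mutants. The mutant MPP3 library was the higher in all 4 batches, with 0.22 ± 0.13 (edgeR, adjusted p 0.470), and the groups overlapped.

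Hspa5, which encodes BiP, the main HSP70 chaperone of the ER and the protein that holds the stress sensors inactive, lay on chr2:34771970-34777547 (ENSMUSG00000026864, plus strand). It had 956, 443, 607 and 588 CPM in control HSC and 878, 672, 387 and 787 in mutant HSC. In MPP3 it had 779, 548, 746 and 599 CPM in controls and 941, 664, 524 and 714 in mutants. Replicate 1 was the highest in every group, and all groups overlapped. The mutant effect was 0.07 ± 0.25 in HSC and 0.09 ± 0.25 in MPP3 (edgeR, adjusted p 0.922 and 0.932), and MPP3 differed from HSC by 0.04 ± 0.25 in control mice and 0.06 ± 0.25 in mutants. The 95% interval in HSC, -0.45 to 0.59, is wide enough to hold the HSC values of Calr (0.50), Dnajb11 (0.45) and Hsp90b1 (0.38). It also holds the value of Sdf2l1 in MPP3 but not that of Sdf2l1 in HSC, 0.69. The handling-induced genes were highest in the same libraries as Hspa5, and their part in its level was not tested. Without batch 1 the mutant effect in HSC was 0.20 ± 0.23 (edgeR, adjusted p 0.742).

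**Figure D5:**
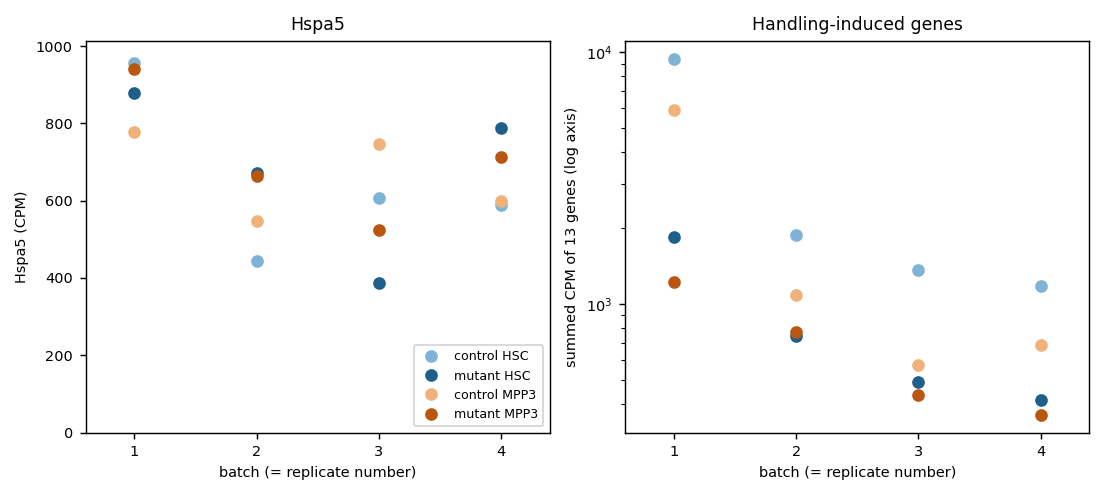
CPM of Hspa5 (left) and summed CPM of 13 handling-induced genes (right, log axis) by batch, with 1 point per library and colours for the 4 groups. Batch 1 holds the highest value of every group in both panels; for Hspa5 these are 956, 878, 779 and 941 CPM.

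Dnajb11 encodes ERdj3, a J-domain partner that brings unfolded proteins to BiP (ENSMUSG00000004460, chr16:22857845-22879634, plus strand). Its CPM was 53.0, 51.0, 58.7 and 78.2 in control HSC and 85.9, 85.4, 61.7 and 95.3 in mutant HSC. In MPP3 it was 78.3, 66.2, 80.4 and 67.2 in controls and 95.5, 74.6, 81.9 and 99.7 in mutants. The mutant library was the higher in all 4 batches of both cell types, while the groups overlapped through control HSC replicate 4 and mutant HSC replicate 3. For mutant against control, HSC had 0.45 ± 0.15 (edgeR, adjusted p 0.0937) and MPP3 had 0.27 ± 0.15 (adjusted p 0.472). Without mutant HSC replicate 3 the HSC value was 0.60 ± 0.14 (edgeR, adjusted p 0.0153) and without control HSC replicate 4 it was 0.60 ± 0.15 (adjusted p 0.0300). DESeq2 on all libraries also called it (0.46 ± 0.16, adjusted p 0.0438). These were 3 of 26 alternatives in HSC, and the others did not call it. Without batch 1 the HSC value was 0.40 ± 0.19 (edgeR, adjusted p 0.308), and single libraries left out gave an adjusted p up to 0.222.

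Sdf2l1 encodes a small ER protein that forms a complex with ERdj3 and BiP (ENSMUSG00000022769, chr16:17130138-17132383, minus strand). It had 60.6, 44.3, 48.1 and 57.3 CPM in control HSC and 74.6, 97.8, 70.3 and 96.4 in mutant HSC. The MPP3 libraries had 93.3, 116, 84.1 and 79.8 CPM in controls and 144, 127, 91.5 and 116 in mutants. Control HSC were the lowest 4 of the 16 libraries, and their mean was 52.6 ± 7.67 CPM, below the 84.8 ± 14.3 of mutant HSC. The mean was 93.2 ± 16 CPM in control MPP3 and highest, at 119.6 ± 22.0, in mutant MPP3 (SD, n = 4 each). Mutant HSC and control MPP3 differed by less than their SD. For mutant against control, HSC had 0.69 ± 0.16 (edgeR, adjusted p 0.0155) and MPP3 had 0.36 ± 0.16 (adjusted p 0.333), with the mutant library higher in 4 of 4 batches each time. MPP3 exceeded HSC by 0.83 ± 0.16 in control mice (edgeR, adjusted p 0.00229) and by 0.50 ± 0.16 in mutants (adjusted p 0.0704). In mutants this difference was called in 3 of 26 alternatives, among them replicate number as a block (edgeR, adjusted p 0.0478) and without mutant MPP3 replicate 3 (0.0330). Without batch 1 it was 0.32 ± 0.19 (edgeR, adjusted p 0.456). The call in HSC was lost without control HSC replicate 2 (0.63 ± 0.17, adjusted p 0.0519) and without mutant HSC replicates 1 and 4 together (0.68 ± 0.20, adjusted p 0.108), and held without batch 1 (0.85 ± 0.19, adjusted p 0.0302, edgeR).

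Set against its partner BiP, the TPM ratio of Sdf2l1 to Hspa5 was 0.172, 0.254, 0.195 and 0.262 in control HSC and 0.233, 0.381, 0.471 and 0.326 in mutant HSC. It was 0.331, 0.567, 0.310 and 0.378 in control MPP3 and 0.449, 0.514, 0.488 and 0.451 in mutant MPP3. The ratio had its lowest values in control HSC, the highest control HSC exceeded the lowest mutant HSC, and the difference was not tested. The ratio of Dnajb11 to Hspa5 ran from 0.0727 to 0.169 in control HSC and from 0.125 to 0.200 in mutant HSC, which overlapped.

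Hsp90b1 encodes GRP94, the HSP90 chaperone of the ER, which folds integrins and Toll-like receptors (ENSMUSG00000020048, chr10:86690209-86705509, minus strand). It had 267, 222, 206 and 288 CPM in control HSC and 379, 321, 215 and 364 in mutant HSC. In MPP3 it had 236, 287, 284 and 330.4 CPM in controls and 362, 286, 299 and 374 in mutants. In HSC 3 of the 4 mutant libraries were above all controls, and replicate 3 was within them. For mutant against control, HSC had 0.38 ± 0.16 (edgeR, adjusted p 0.177; 0.57 ± 0.13 and 0.0137 without mutant HSC replicate 3) and MPP3 had 0.22 ± 0.16 (adjusted p 0.613). The mean over both cell types, 0.30 ± 0.11, was not called (edgeR, adjusted p 0.101), but was with replicate number as a block (0.29 ± 0.09, adjusted p 0.0458). It was also called by DESeq2 and, with edgeR, without mutant HSC replicate 3 (adjusted p 0.0479 and 0.0105). These were 3 of 25 alternatives for the mean, and the others did not call it. In HSC only 1 of 26 alternatives, that without mutant HSC replicate 3, gave a call. Without batch 1 the HSC value was 0.36 ± 0.19 and the mean was 0.23 ± 0.13 (edgeR, adjusted p 0.349 and 0.357).

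Calr and Canx encode calreticulin and calnexin, the soluble and the membrane-bound lectin that hold glycoproteins while they fold. Calr (ENSMUSG00000003814, chr8:84841850-84846934, minus strand) had 303, 299, 321 and 353 CPM in control HSC and 591, 436, 308 and 470.1 in mutant HSC. The MPP3 libraries had 567, 513, 464 and 525 CPM in controls and 703, 653, 547 and 710.4 in mutants. Mutant HSC replicate 3 lay among the controls and the other 3 mutant HSC above them all. For mutant against control, HSC had 0.50 ± 0.15 (edgeR, adjusted p 0.0476) and MPP3 had 0.34 ± 0.15 (adjusted p 0.315), higher in 3 of 4 and in 4 of 4 batches. The call in HSC stood close to its threshold. It was lost without any of the 4 control HSC, without mutant HSC replicate 1, 2 or 4, and without control MPP3 replicate 3 or 4 (adjusted p 0.0514 to 0.169), without mutant HSC replicates 1 and 4 together (0.22 ± 0.14, adjusted p 0.513), and without batch 1 (0.35 ± 0.15, adjusted p 0.254). With all libraries it was also lost by limma-voom (adjusted p 0.0564) and, in edgeR, with the groups compared alone (0.0883) and with effective-length offsets (0.0505). Without mutant HSC replicate 3 the adjusted p was 0.00131. By cell type the difference was 0.70 ± 0.15 in control mice (edgeR, adjusted p 0.00401) and 0.53 ± 0.15 in mutants (adjusted p 0.0300), higher in 4 of 4 batches in each. In control mice that call held in every fit with a library left out. In mutants it was lost in 9 of those 16 fits (adjusted p up to 0.103) and held without batch 1 (0.64 ± 0.15, adjusted p 0.0310, edgeR).

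Canx (ENSMUSG00000020368, chr11:50293961-50325673, minus strand) had 931, 819.7, 822 and 1024.6 CPM in control HSC and 1099.1, 995, 689 and 941 in mutant HSC. In MPP3 it ran from 784 to 1189.6 CPM in controls and from 1035.6 to 1240.5 in mutants. The groups overlapped, and the mutant effect was 0.05 ± 0.14 in HSC and 0.17 ± 0.14 in MPP3 (edgeR, adjusted p 0.899 and 0.663). The TPM ratio of Calr to Canx was 0.444, 0.503, 0.508 and 0.477 in control HSC and 0.761, 0.589, 0.582 and 0.652 in mutant HSC, with no overlap, and mutant HSC replicate 3 was above the controls on this ratio, which was not tested. In MPP3 the ratio was 0.749 ± 0.167 in controls and 0.817 ± 0.0902 in mutants (SD, n = 4 each) and overlapped. A ratio within a library shows unequal change and not which gene moved.

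Pdia4 and Pdia6 encode ERp72 and P5, disulfide isomerases that form and exchange disulfide bonds in folding proteins. Pdia4 (ENSMUSG00000025823, chr6:47796141-47813430, minus strand) had 176, 145, 147 and 152 CPM in control HSC and 162, 155, 163 and 160.4 in mutant HSC. In MPP3 it had 170.2, 182, 191 and 161 CPM in controls and 234, 184, 210.0 and 204 in mutants. Mutant HSC were the tightest group, at 160.3 ± 3.64 CPM (SD, n = 4), and every mutant MPP3 library was above them. That difference between cell types was 0.37 ± 0.09 (edgeR, adjusted p 0.0135), higher in 4 of 4 batches, and was 0.18 ± 0.09 in control mice (adjusted p 0.207). The call was lost without mutant HSC replicate 2 or 4 or mutant MPP3 replicate 1 (adjusted p 0.0578, 0.0510 and 0.0671) and without batch 1 (0.30 ± 0.10, adjusted p 0.110, edgeR). The mutant effect on Pdia4 was 0.05 ± 0.09 in HSC and 0.24 ± 0.09 in MPP3 (edgeR, adjusted p 0.835 and 0.238).

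Pdia6 (ENSMUSG00000020571, chr12:17266545-17284770, plus strand) had 490.0, 391, 434 and 491 CPM in control HSC and 547, 494, 437 and 618 in mutant HSC. The MPP3 libraries had 475, 470.4, 514 and 506 CPM in controls and 678, 529, 556 and 659.7 in mutants. The lowest mutant MPP3 library stood above the highest control MPP3. The mutant effect was 0.30 ± 0.11 in MPP3 (edgeR, adjusted p 0.238) and 0.22 ± 0.11 in HSC (adjusted p 0.287), higher in 4 of 4 batches of each. Its mean over the cell types was 0.26 ± 0.08 (edgeR, adjusted p 0.0432).

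The chaperones varied together between libraries. Over the 16 libraries Pearson's r between pairs of the 8 genes had a median of 0.68 (28 pairs, 0.35 to 0.86). After group means were removed the median was 0.55, with 27 of the 28 pairs above 0, from -0.11 to 0.83 for Hsp90b1 with Pdia6. Between an ATF6 factor and a chaperone the median was -0.04 (16 pairs), or -0.03 after group means were removed. All pairs share the same libraries, depth and scaling, so these values are descriptions. In control HSC, replicate 2 had the lowest level of 7 of the 8 chaperones, and in mutant HSC replicate 3 did. Within batches, the mutant HSC library was above its control in 6, 8, 5 and 7 of the 8 chaperones in batches 1 to 4, and the mutant MPP3 library in 8, 7, 7 and 7. Among 10052 other genes that averaged 5 CPM or more, those whose log2 CPM was most like the mean of the standardised chaperones over the 16 libraries were Fam111a (r = 0.96), Actr3 (0.95), Hmgb1 (0.95), Capzb (0.94) and Ssr1 (0.94). Most like Atf6 were Dnajc24 (0.80), Txndc17 (0.77) and Crat (0.76).

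Of 50 other ER folding genes tested, 2 rose and 0 fell in mutant HSC: Fkbp2, a prolyl isomerase, from 69.8 ± 6.59 to 89.1 ± 6.85 CPM, and Prdx4, the ER peroxiredoxin, from 90.0 ± 13 to 121 ± 6.14 CPM (SD, n = 4; edgeR, adjusted p 0.0457 and 0.0467). These calls are 4.00% of the list, against 4.56% of all genes called higher. The median log2 fold change of the list was 0.03, against -0.06 over all genes. In the mean over cell types 4 were higher (Prdx4, Fkbp2, Dnajc10 and Selenof) and 2 lower (Fkbp14 and Ficd), against 7.09% and 5.55% of all genes. In mutant MPP3 0 of the 50 were called by edgeR, with a median of 0.11, and Prdx4 had 0.49 ± 0.12 (adjusted p 0.120). By cell type the list had calls in both directions. In control mice 4 were higher and 5 lower in MPP3. These were 8.00% and 10.0% of the list, against 6.67% and 6.91% of all genes. Among them Erp29 (93.4 to 136 CPM) and Uggt1 (67.7 to 97.5) rose, and Creld1 (38.2 to 19.8), Fkbp11 (25.6 to 10.3) and Prdx4 (90.0 to 56.3) fell. In mutant mice 4 were higher and 4 lower, or 8.00% of the list each, against 3.69% and 4.68% of all genes. Thus Prdx4 was higher in mutant HSC than in control HSC, as Sdf2l1 and Calr were, but lower in MPP3 than in HSC, where they were higher.

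Genes that process ATF6 or work with it gave 0 calls of 14 in each of the 5 planned comparisons by edgeR, where 0.0423% to 13.6% of all genes were called. In the mean over cell types 1 of the 14 was called, Nfyb (0.41 ± 0.12, edgeR, adjusted p 0.0298). That is 7.14% of the list, near the 7.09% of all genes called higher. In HSC the smallest adjusted p was that of Nfyb, a subunit of NF-Y, with 33.4 ± 4.50 CPM in control and 49.1 ± 8.87 in mutant HSC (0.56 ± 0.17, edgeR, adjusted p 0.0530). The protease gene Mbtps1 had 202 ± 16.9 CPM in control and 173 ± 30.9 in mutant HSC (SD, n = 4 each; edgeR, adjusted p 0.328). Of 7 genes of the other arms of the unfolded protein response, 2 fell in mutant HSC: Xbp1, from 41.4 ± 6.36 to 19.1 ± 3.94 CPM, and Ern1, the sensor IRE1, from 38.5 ± 22.6 to 16.5 ± 3.93 CPM (edgeR, adjusted p 0.00461 and 0.0343). These are 28.6% of the list, against 2.74% of all genes called lower. Not called were Dnajb9 (-0.71 ± 0.27), Ddit3 (-0.45 ± 0.27), Eif2ak3 (-0.31 ± 0.34), Atf4 (-0.08 ± 0.21) and Herpud1 (-0.02 ± 0.16). In MPP3 0 of the 7 were called by edgeR (adjusted p 0.279 to 0.973). Xbp1 was also lower in control MPP3 than in control HSC (-0.69 ± 0.21, edgeR, adjusted p 0.0373).

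Several marker lists differed between groups in summed level or in calls. Of 6 genes for granule proteins made in the ER, 4 were called higher in MPP3 in control mice and 4 in mutants. Over all genes 6.67% and 3.69% were called higher. Mpo was as given above, and Ctsg had 0.15 CPM in control HSC and 57.6 in control MPP3. In control mice Ctsc was lower in MPP3 (90.0 to 64.6 CPM) and Srgn slightly higher (694 to 771), neither called (edgeR, adjusted p 0.0946 and 0.519). With the mutation, Prtn3 fell in HSC (349 ± 27.9 to 218 ± 60.0 CPM, edgeR, adjusted p 0.0193) and 0 of 6 were called in MPP3. The summed level of 12 markers of B cells and plasma cells was 83.6 to 112 CPM in control HSC, 66.2 to 77.6 in mutant HSC, 165 to 776 in control MPP3 and 97.7 to 173 in mutant MPP3. Of these, Ighm averaged 138 CPM in control and 36.0 in mutant MPP3, Igkc 98.4 and 0.926, Jchain 38.4 and 0.187, Cd79a 23.4 and 4.95 and Mzb1 6 and 1.24. Control MPP3 replicate 2 held the highest value of each of these 5, and none was called between genotypes in MPP3 by edgeR. No gene of the list was at 0 in all control MPP3, and Tnfrsf17 and Irf4 were in mutant MPP3. The sum of 7 mast cell and basophil markers was 4.74 to 10.2 CPM in control HSC and 55.9 to 110.3 in control MPP3, with 3 of the 7 at 0 in control MPP3. Markers of mature neutrophils summed to 24.3 to 72.9 CPM in control HSC, 4.29 to 50.4 in mutant HSC, 11 to 301 in control MPP3 and 7.84 to 217 in mutant MPP3. Erythroid markers summed to 437 to 866 CPM in control and 90.3 to 287 in mutant MPP3, with 0 of 8 called by edgeR. Car1 was the most abundant (413 to 51.8 CPM), and Hbb-bt rose (32.7 to 40.5). In HSC their sum was 109.5 to 436 CPM in control and 129 to 329 in mutant. Megakaryocyte markers summed to 759.5 to 1037.5 CPM in control and 985 to 1474.7 in mutant HSC. There 2 of 7 tested were called higher, against 4.56% of all genes, and Vwf fell (219.8 to 162 CPM). In MPP3 their sum was 167 to 245 CPM in control and 202 to 305 in mutant. The 12 tested handling-induced genes had a median log2 fold change of -1.74 in mutant HSC and -1.42 in mutant MPP3, with none called by edgeR. The part of these cells and genes in the chaperone levels was not tested. Without batch 1, which leaves a sum of handling-induced genes of 1175.0 to 1870.1 CPM in control and 417 to 743 in mutant HSC, the HSC call of Sdf2l1 held, and those of Calr in HSC and of Pdia4 between cell types of mutant mice were lost, as given above.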

How the data were processed

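RNA from 7000 to 10000 sorted cells per library went into a SMARTer Ultra Low cDNA kit, per the labels' protocols. The submitters' processing notes name cutadapt 4.0, FastQC, HISAT2, Salmon and GRCm38 (mm10); their roles and settings and the transcript set are not stated there. The authors deposited Salmon gene tables whose estimated counts (not normalized) were tested here after rounding. The deposited TPM, which Salmon divides by effective length, was used to compare levels between genes. Effective lengths, per the file headers, served in 1 alternative. Of 31716 rows, 29806 are genes; 1910 transcript rows (0.697 to 0.796% of counts) were left out except in 1 alternative. Totals of 33108537 to 41230956 counts limit precision through counting error less than the spread between libraries does.

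Genes kept by filterByExpr (14179) were fitted with edgeR 4.0.16 in R 4.3.3 (TMM, robust glmQLFit, glmQLFTest, 1 coefficient per group, Benjamini-Hochberg adjustment); an adjusted p under 0.05 is a call. SE is the log2 fold change over the square root of F, intervals are 95%, and log2 CPM used a prior count of 2. Alternatives were RLE size factors, DESeq2 1.42.0, limma-voom (3.58.1), no filter, the replicate number as a block, the groups compared alone, effective-length offsets, transcript rows added, each library left out in turn, and mutant HSC replicates 1 and 4 (the most alike) left out together. Added after seeing the data were the mean over cell types and the fits without batch 1. Since the labels make the replicate number the batch, it pairs the libraries. Deviations of same-numbered libraries from their group means had r from -0.032 to 0.164 (24 pairs), against -0.104 to 0.07 for other numbers (72 pairs). The script was tested on simulated data. The 10 genes and the gene lists were chosen with earlier results of these data known. By rule the text names all 10 genes, and from each list up to 6 genes with the smallest adjusted p. Further, it names all genes of the other arms, the 5 genes most like the chaperones and the 3 most like Atf6. The markers given by name, apart from granule genes the rule names, and the genes Mbtps1, Creld2 and Dnajc3 were named after their values were seen.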

Additional observations from a re-analysis of the deposited data

How the results depend on the processing

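Each of the 60 results on single genes was refitted under 25 or 26 alternatives, 1540 fits in all, of which 1390 kept direction and side of the threshold, 57 lost a call, 11 gained one and 82 changed sign. The cause of these changes was not tested. All sign changes were in results that were not called. No depth limit applied to the 10 genes, whose lowest count was 839.

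In HSC the number of the 10 genes called between mutant and control (2) was 1 with limma-voom, with the groups compared alone, with effective-length offsets and without batch 1, Calr being the gene lost, and 0 without mutant HSC replicates 1 and 4. It ran from 0 to 4 with single libraries left out. All genes called (1035) came to 1668 with DESeq2, 266 without mutant HSC 1 and 4, 457 without batch 1 and 605 to 1412 with single libraries left out. In MPP3 all genes called (9) came to 386 with DESeq2, 1 with no filter, 82 with the replicate block, 0 with the groups compared alone, 16 with effective-length offsets, 1 without mutant HSC 1 and 4, 2 without batch 1 and 1 to 209 with single libraries left out. Between cell types in control mice all genes called (1926) came to 1267 without batch 1. In mutant mice the number of the 10 genes called (2) was 0 with the groups compared alone, 1 without mutant HSC 1 and 4, 1 without batch 1 and 0 to 3 with single libraries left out. There all genes called (1186) came to 776 without mutant HSC 1 and 4 and 742 without batch 1. For the difference of the mutant effects, all genes called (6) came to 78 with DESeq2, 1 with the replicate block, 0 without mutant HSC 1 and 4, 0 without batch 1 and 1 to 5 with single libraries left out. For the mean over cell types the number of the 10 genes called (4) was 1 without mutant HSC 1 and 4, 1 without batch 1 and 2 to 5 with single libraries left out, and all genes called (1793) came to 781 and 774 in the first 2 of these.

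Signs changed as follows, on the log2 scale. For the mutant effect in HSC, Atf6 was 0.02 with no filter, 0.016 with the groups compared alone, 0.14 without mutant HSC 1 and 4, 0.046 without batch 1 and -0.057 to 0.10 with single libraries left out. There Atf6b was 9.3e-06 with no filter, 0.089 without mutant HSC 1 and 4, 0.15 without batch 1 and -0.10 to 0.084 with single libraries left out. Hspa5 was -0.29 and Canx -0.095 without mutant HSC 1 and 4, and -0.076 to 0.35 and -0.039 to 0.21 with single libraries left out. For the mutant effect in MPP3, single libraries left out gave -0.13 to 0.11 for Atf6 and -0.083 to 0.23 for Hspa5. For MPP3 against HSC in control mice, Atf6b was 0.0099 with no filter, 0.029 with effective-length offsets, 0.011 without batch 1 and -0.048 to 0.018 with single libraries left out. Hspa5 was -0.0036 with effective-length offsets and -0.10 to 0.29 with single libraries left out, and Atf6 -0.18 to 0.038. In mutant mice Hspa5 was -0.0024 with effective-length offsets, and single libraries left out gave -0.15 to 0.21 for Hspa5, -0.16 to 0.013 for Atf6, -0.032 to 0.16 for Dnajb11 and -0.12 to 0.14 for Hsp90b1. For the difference of the mutant effects, Hspa5 was -0.027 with no filter, -0.023 with the replicate block, -0.18 without batch 1 and -0.25 to 0.17 with single libraries left out. Without mutant HSC 1 and 4, Hsp90b1 was 0.089 and Calr 0.12, and without batch 1 Calr was 0.012 and Pdia6 -0.023. Single libraries left out gave -0.15 to 0.092 for Atf6, -0.047 to 0.22 for Canx and -0.039 to 0.16 for Pdia6. For the mean over cell types Atf6 was 0.052 and Hspa5 -0.10 without mutant HSC 1 and 4, and Atf6 -0.065 to 0.064 with single libraries left out. Apart from the values given beside their results, the replicate block changed no call of the 10 genes.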
